A study of Mus musculus with 10 samples.

Results

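Cell cycle genes were followed in mouse bone marrow macrophages of 2 origins, each left untreated or given lipopolysaccharide (LPS), an outer membrane molecule of Gram-negative bacteria that macrophages sense through TLR4. The set was picked by gene name and holds 39 of the 13809 genes in the deposited RNA sequencing table. It comprises 16 replication genes, which act in late G1 and S phase (G1/S), and 23 mitosis genes, which act in G2 and M phase (G2/M). All 39 were present in the table and all 39 passed the filter on low values. The 10 libraries came from C57BL/6 mice aged 12 weeks. Resident macrophages, labelled CD163+, are naturally ferromagnetic marrow cells that stayed on a magnetic column with no staining step. Bone marrow derived macrophages (BMDM), labelled CD163-, were cultured from the cells that passed the column, in 20% L929 supernatant, for 6 days according to the protocol and 7 days according to the titles. LPS was given at 1 µg/ml for 4 h, and there were 3 untreated and 3 LPS-treated resident libraries and 2 untreated and 2 LPS-treated BMDM libraries. Whether libraries of a group came from different animals or cultures is not stated in the labels. Y-linked transcripts summed to 3374 and 3965 in replicate 1 of the resident groups and were at the floor in all other libraries. Each resident group therefore holds libraries from different animals. The p-values reflect only the spread between these libraries, which may be technical in BMDM and partly so in the resident groups.

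A dividing cell licenses its replication origins in G1, copies its DNA in S phase and separates the copies in mitosis, and each step has its own transcripts. E2F factors, held back by the RB family, drive the replication genes, while B-MYB, the MuvB core and FOXM1 drive the mitosis genes through a short promoter word called CHR (cell cycle genes homology region). L929 supernatant supplies macrophage colony-stimulating factor, which keeps cultured macrophages dividing, and LPS is known to stop that division.

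Promoter sequences from RefSeq (GRCm38.p6) show how the classes differ in words that this control is known to use. Promoters were found for 33 of the 39 genes, and each was read from 250 bases before to 50 bases after the transcription start, on both strands. The E2F words TTTCCCGC, TTTCGCGC, TTTGCCGC and TTTGGCGC were present in the promoters of 6 of 14 G1/S genes and 1 of 19 G2/M genes, and in 2.27% of all 32851 promoters of this length. The CHR word TTTGAA was present for 1 of 14 G1/S genes and 14 of 19 G2/M genes, against 17.9% of all promoters. The word CCAAT, bound by the NF-Y factor, was present for 8 of 14 and 17 of 19 genes, against 37.4% of all promoters. Counted by gene, as for the classes, the words were present for 704 (E2F), 5466 (CHR) and 11096 (CCAAT) of 27025 genes. A match describes these letters and is not evidence of binding, and the E2F words can overlap each other, as they do in Mcm5. The stretches below, each 160 bases long, were chosen to show replication genes with E2F words (Cdc6, Mcm5, Mcm6), the replication gene that went up with LPS in BMDM (Ccne1, with none of the words), mitosis genes that went down there (Cdc20, Cdk1, Kif11, Top2a) and the proliferation marker that was not called (Mki67). Each is printed 5′ to 3′ on the gene's strand, with E2F, CHR and CCAAT words or their reverse complements in capitals. Their positions are Cdc6 chr11:98907991-98908150 (plus strand), Mcm5 chr8:75109349-75109508 (plus), Mcm6 chr1:128359706-128359865 (minus), Ccne1 chr7:38107535-38107694 (minus), Cdc20 chr4:118437353-118437512 (minus), Cdk1 chr10:69352939-69353098 (minus), Kif11 chr19:37376222-37376381 (plus), Top2a chr11:99024190-99024349 (minus) and Mki67 chr7:135716380-135716539 (minus). All lie outside annotated exons. The mitosis genes shown all hold the CHR word, but Birc5, Bub1 and Ccnb1, which went down in BMDM as well, have none in their promoters. The promoter of Ube2c, which was not called, has it. Like that of Ccne1, the promoters of E2f1, Tk1 and Birc5 hold none of the words, but these genes went down in BMDM. Mcm5 and Mcm6, which hold E2F words, were not called.
Cdc6: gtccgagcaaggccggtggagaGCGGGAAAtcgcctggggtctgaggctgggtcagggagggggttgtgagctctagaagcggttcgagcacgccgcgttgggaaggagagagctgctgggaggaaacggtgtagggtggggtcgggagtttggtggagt
Mcm5: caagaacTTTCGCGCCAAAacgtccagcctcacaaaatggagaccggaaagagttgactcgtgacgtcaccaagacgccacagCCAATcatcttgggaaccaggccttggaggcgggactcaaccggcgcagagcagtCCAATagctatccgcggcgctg
Mcm6: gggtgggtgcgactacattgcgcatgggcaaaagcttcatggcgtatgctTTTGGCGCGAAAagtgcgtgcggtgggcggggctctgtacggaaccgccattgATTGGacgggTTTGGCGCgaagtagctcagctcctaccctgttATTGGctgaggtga
Ccne1: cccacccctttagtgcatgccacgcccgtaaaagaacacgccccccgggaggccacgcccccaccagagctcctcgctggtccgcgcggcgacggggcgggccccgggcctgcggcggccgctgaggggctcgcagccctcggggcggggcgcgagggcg
Cdc20: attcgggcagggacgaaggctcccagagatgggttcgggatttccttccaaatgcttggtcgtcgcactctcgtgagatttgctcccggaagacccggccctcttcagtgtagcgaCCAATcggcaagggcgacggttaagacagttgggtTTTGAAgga
Cdk1: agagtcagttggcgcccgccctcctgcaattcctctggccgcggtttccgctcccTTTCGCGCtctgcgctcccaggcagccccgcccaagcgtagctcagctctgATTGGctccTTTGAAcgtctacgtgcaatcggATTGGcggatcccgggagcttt
Kif11: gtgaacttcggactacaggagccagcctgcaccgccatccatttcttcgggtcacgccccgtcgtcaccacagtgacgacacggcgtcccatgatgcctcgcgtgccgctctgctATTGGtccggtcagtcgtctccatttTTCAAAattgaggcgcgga
Top2a: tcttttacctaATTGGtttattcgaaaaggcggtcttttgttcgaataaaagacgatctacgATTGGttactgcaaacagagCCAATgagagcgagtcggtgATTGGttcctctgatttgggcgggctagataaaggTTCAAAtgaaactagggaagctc
Mki67: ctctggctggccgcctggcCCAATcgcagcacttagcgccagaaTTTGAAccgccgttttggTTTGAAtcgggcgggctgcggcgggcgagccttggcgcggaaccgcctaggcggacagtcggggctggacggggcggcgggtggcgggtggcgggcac

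Recovered gene reads per library ranged from 27.1 to 37.7 M (M, 10 to the power of 6), and values below are normalized reads as the authors scaled them. The 11 macrophage markers were above the floor in all 10 libraries. Cd163, the receptor for hemoglobin and haptoglobin complexes, lay at 4131 to 10740 in resident libraries and at 14.4 to 53.9 in BMDM, the direction that the labels give. The resident fraction also carried transcripts of other marrow cells, some of which divide. The 10 neutrophil markers summed to between 224961 and 415854 in resident libraries, more than the 11 macrophage markers (180061 to 316795), and to between 1470 and 2739 in BMDM, where Ly6g was at the floor. The 8 megakaryocyte markers summed to 14475 to 50116 and to 3252 to 4308. The 8 markers of granulocyte progenitors summed to between 9654 and 26555 in resident libraries and to between 63.1 and 269 in BMDM, where Gfi1 alone had 203 and 189.6 reads after LPS. The 10 B lineage markers summed to 3489 to 7872 and to 116 to 155, and Rag1, Rag2 and Igll1 were at the floor in all 4 BMDM libraries. The 8 markers of erythroid progenitors summed to 2964 to 6236 and to 1789 to 2347, but the BMDM sum came mostly from Tfrc (1075 to 1427) and Tal1 (662 to 960). Car1 was at the floor in all 4 BMDM libraries, and Klf1 had at most 4.57 reads there and Gata1 at most 15.5. Markers of stem and progenitor cells (7) summed to 1793 to 3857 in resident libraries and to 129 to 257 in BMDM. For 9 erythroid markers the sums were 35393 to 54346 and 46.8 to 112. For 6 monocyte markers they were 23013 to 50841 and 755 to 2324. Dendritic cell markers (8) did not separate the origins, at 13808 to 18308.5 and 8529 to 36514.5. Since these are bulk samples, fewer cells of a type and less RNA per cell cannot be told apart.

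Replicate 1 of each resident group, a number given in accession order, stood apart and is the only resident library of its group with Y-linked transcripts. It was the lowest of the 3 untreated libraries for 16 of 16 G1/S genes and 23 of 23 G2/M genes, against 41.3% of all genes tested. Among LPS-treated libraries it was the lowest for 14 of 16 and 23 of 23, against 39.9% of all genes. Its log2 value lay below the mean of the other libraries by a median of -0.69 (G1/S) and -0.76 (G2/M) in untreated cells and -0.45 and -0.42 after LPS. Over all genes these medians were -0.01 and -0.02. Progenitor markers were lower in it as well: the granulocyte progenitor sum was 9654 in untreated replicate 1 against 21131 and 26555, and 12193 in LPS replicate 1 against 19207 and 21818. The macrophage marker sum went the other way, at 316795 in untreated replicate 1 against 219461 and 209042, and at 233994 after LPS against 180061 and 185139. The part of these differences in the results was not tested, and counts without both libraries are given with each comparison.

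**Figure D1:**
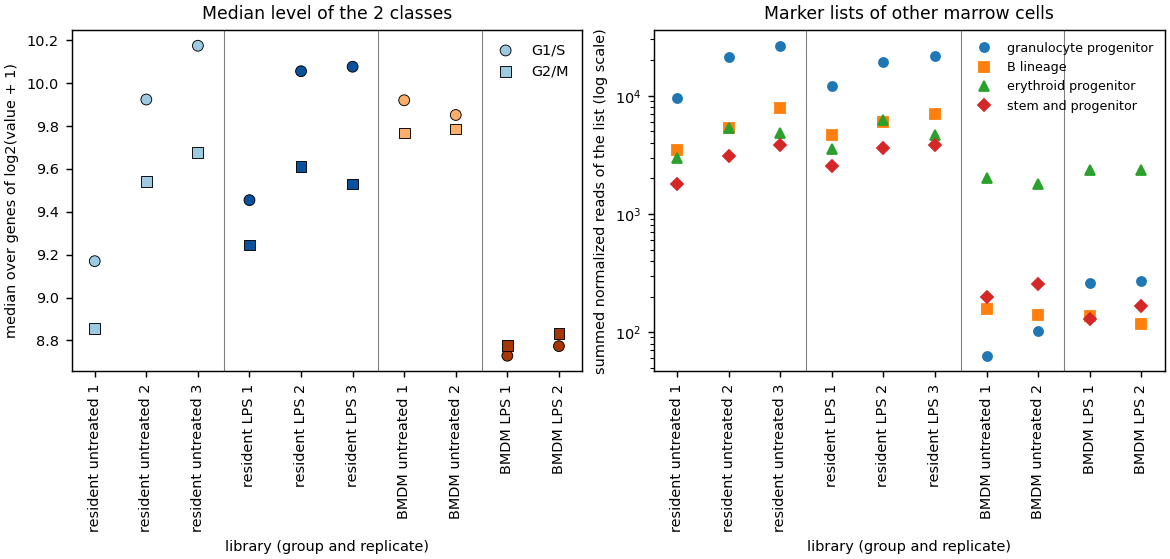
Left, the median of log2(value + 1) over the 16 G1/S genes (circles) and the 23 G2/M genes (squares) in each of the 10 libraries. Right, the summed normalized reads of 4 marker lists (granulocyte progenitor, B lineage, erythroid progenitor, stem and progenitor) on a log axis. LPS-treated BMDM have the lowest class medians (8.73 to 8.83), and replicate 1 lies below the other libraries in both resident groups.

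The first comparison asks what LPS does to cell cycle transcripts in macrophages that divide in culture. In BMDM both classes fell. Of 16 G1/S genes 10 fell and 1 rose, and of 23 G2/M genes 18 fell and 1 rose (limma, adjusted p under 0.05). Over all 13755 genes tested, 57.8% were called, 29.5% lower and 28.3% higher. The median log2 change was -1.04 for G1/S genes and -1.06 for G2/M genes, against -0.04 for all genes. Only 16.1% and 15.5% of all genes had a change below those medians. The libraries of the groups did not overlap for any of the 39 genes, 33 lower and 6 higher with LPS. That is common in BMDM, where 44.7% of all genes lay apart downwards and 39.7% upwards. Whether the classes differ from each other was not tested, and the exceptions within each are described by role.

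Among the regulators of S phase entry, the cyclin E genes moved in opposite directions. E2f1, the transcription factor gene that opens the replication programme, stood at 908 and 889 in untreated BMDM and at 366 and 336 after LPS. It fell by 1.35 ± 0.27 (log2 ± SE, limma adjusted p = 0.00142). Ccne2, which encodes cyclin E2, a partner of CDK2, stood at 172 and 157 before and 45.2 and 44.7 after LPS, a change of -1.85 ± 0.25 (limma adjusted p = 0.000104). Ccne1, which encodes its close relative cyclin E1, stood at 199.6 and 199 before LPS. Its values after LPS were 827 and 853, a rise of 2.07 ± 0.26 (limma adjusted p = 6.27e-05). Ccne1 was the one G1/S gene called higher in this fit, and it was called in all 25 other settings tried. It lies at chr7:38097984-38107534 (minus strand, GENCODE on GRCm38) and shares no exon bases with another gene, while Ccne2 shares 17.4% of its exon bases with Ints8 on the other strand. The strand setting of the counting is not given in the sources used here, so reads of such antisense partners cannot be told apart.

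The licensing and helicase genes fell in 6 of 8 cases. Mcm2, a subunit of the MCM2-7 helicase that unwinds DNA, stood at 800.4 and 672 in untreated BMDM and at 190.2 and 194 after LPS, a change of -1.93 ± 0.27 (limma adjusted p = 0.000156). The other helicase subunits did not follow it evenly, although they work in 1 ring. Mcm7 changed by -1.63 ± 0.20, Mcm3 by -1.24 ± 0.23 and Mcm4 by -0.69 ± 0.21, all called lower. Mcm5 (-0.69 ± 0.29, adjusted p = 0.0605) and Mcm6 (0.31 ± 0.16, adjusted p = 0.118) were not called by limma. Mcm6 had 2704 and 2513 reads before LPS and 3178 and 3274 after it, so its libraries lay apart in the direction opposite to the other 5. The loaders that place the ring on origins were both lower, Cdt1 by -1.50 ± 0.08 and Cdc6 by -0.84 ± 0.28. Cdt1 had 1892 and 1853 reads before and 678 and 647 after LPS.

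The clamp and the nucleotide supply genes were split. Pcna, the sliding clamp that holds polymerases on DNA, stood at 15356 and 14909 before LPS and at 14509.8 and 13918 after it. Its change of -0.09 ± 0.08 was not called (limma adjusted p = 0.374). That depended on the scaling: Pcna was called lower under quantile normalization (-0.92, limma adjusted p = 2.35e-05) and with library totals set equal (-0.70). Rrm2, the regulated subunit of ribonucleotide reductase, stood at 1024 and 958 before and 233 and 245 after LPS. Its change of -2.04 ± 0.32 was the largest fall of the class (limma adjusted p = 0.000342). Rrm1, the large subunit of the same enzyme, changed by -0.67 ± 0.27 and just missed the threshold (limma adjusted p = 0.0529). Tk1, the thymidine kinase of the salvage route, fell by 1.81 ± 0.36. Tyms, the thymidylate synthase of the de novo route, had a change of 0.51 ± 0.31 that was not called (limma adjusted p = 0.188). Pseudogenes named after Pcna and Tyms exist, and how reads shared with them were counted is not given in the sources used here.

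**Figure D2:**
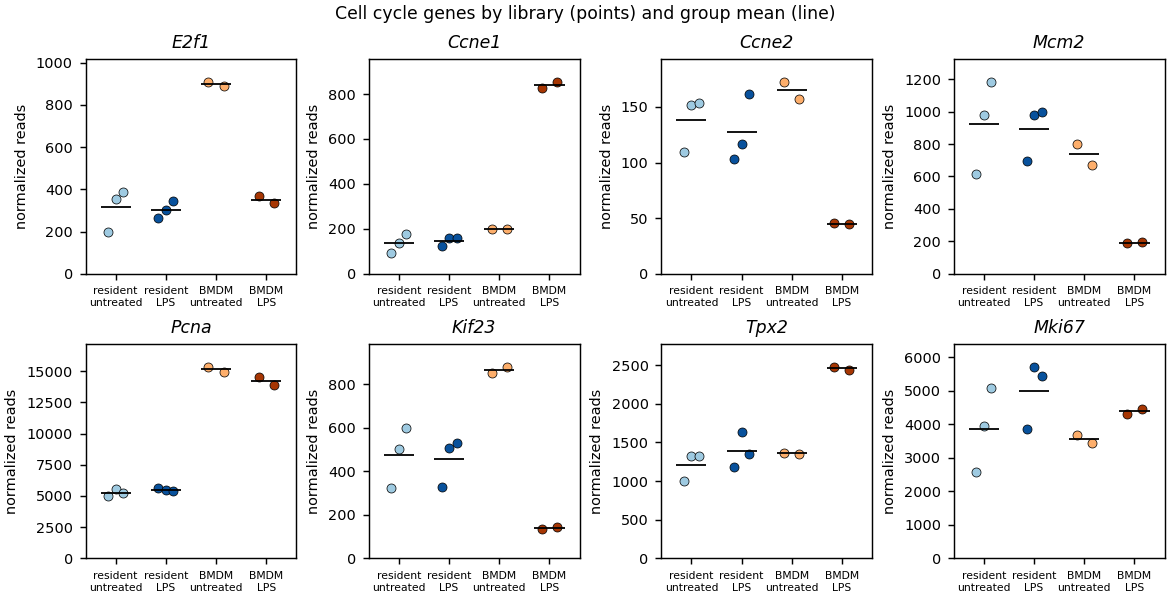
Normalized reads of 8 cell cycle genes in each library (points) with the group mean (line), on linear axes that start at 0. Ccne1 and Tpx2 are highest in LPS-treated BMDM, Mcm2, Ccne2 and Kif23 are lowest there, and Pcna separates the origins (4963 to 5644 against 13918 to 15356) more than the treatments.

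Mitosis genes fell across nearly every role in BMDM. All 4 cyclin and CDK genes fell. Cdk1, the kinase that starts mitosis, stood at 1181 and 1269 before LPS and at 665 and 671 after it, a change of -0.87 ± 0.23 (limma adjusted p = 0.0088). Ccnb1, which encodes its activating cyclin B1, stood at 958 and 949 before and at 536 and 563 after LPS, a change of -0.79 ± 0.24 (limma adjusted p = 0.0157). Ccna2, the cyclin of S and G2 phase, changed by -1.46 ± 0.29, and Ccnb2 by -0.69 ± 0.22. The groups lay clear of each other for all 4.

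The 4 genes of the mitotic kinases and the chromosomal passenger complex also fell. Aurkb, the kinase of that complex, changed by -1.54 ± 0.32 and its partner survivin (Birc5) by -1.06 ± 0.21. Aurka, which acts at spindle poles, changed by -1.30 ± 0.22 and Plk1 by -1.22 ± 0.26. Both spindle checkpoint kinase genes fell, Bub1 by 0.97 ± 0.30 and Bub1b by 1.50 ± 0.27. Cdc20, the activator that lets the anaphase-promoting complex release sister chromatids, stood at 648 and 658 before LPS and at 148 and 164 after it. Its change was -2.06 ± 0.25 (limma adjusted p = 4.72e-05). Ube2c, the ubiquitin-conjugating enzyme of the same complex, had a change of -0.34 ± 0.23 and was not called (limma adjusted p = 0.232). Its exons overlap Tnnc2 on the other strand over 22.8% of their bases.

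The largest fall of all 39 genes was in cytokinesis. Kif23, a motor of the central spindle (chr9:61915905-61946774, minus strand), stood at 852 and 882 in untreated BMDM and at 137 and 146 after LPS, a change of -2.61 ± 0.28 (limma adjusted p = 2.23e-05). Kif20a (-2.04 ± 0.23) and Prc1 (-1.09 ± 0.23), which work at the same structure, fell as well. Of the centromere genes, Cenpf stood at 603 and 621 before LPS and at 136 and 149 after it, a change of -2.10 ± 0.29 (limma adjusted p = 0.000137). Cenpa, the centromeric histone, fell by 1.58 ± 0.22, while the kinetochore motor gene Cenpe had a change of 0.18 ± 0.27 that was not called (limma adjusted p = 0.612). Kif20a shares 29.3% of its exon bases with Cdc23 on the other strand. Smaller overlaps with antisense genes exist for Mcm7 (12.6%), Ccna2 (12.5%) and Prc1 (11.1%), and Ccnb1 and Ccnb2 have named pseudogenes, so the values of these genes are uncertain to that extent.

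Spindle assembly genes were called in opposite directions, as the cyclin E genes were. Tpx2, which activates Aurora A on the spindle (chr2:152847964-152895321, plus strand), stood at 1364 and 1351 before LPS and at 2479 and 2435 after it. It rose by 0.86 ± 0.16 (limma adjusted p = 0.00116), the one G2/M gene called higher in this fit. With library totals set equal, Tpx2 had a change of 0.24 and was not called (limma adjusted p = 0.328), while it stayed called under quantile normalization and median-ratio factors. Kif11, the motor that pushes spindle poles apart, fell by 0.91 ± 0.31, and Nusap1 was not called (-0.10 ± 0.24). Top2a, the topoisomerase that disentangles chromosomes, fell by 0.89 ± 0.30. Mki67, the common proliferation marker that coats mitotic chromosomes, stood at 3676 and 3456 before LPS and at 4305 and 4469 after it. Its libraries lay apart upwards, and its change of 0.30 ± 0.27 was not called (limma adjusted p = 0.374). The same change was called with array weights (limma adjusted p = 0.0284), with only the BMDM groups fitted (limma adjusted p = 0.00934) and without the resident libraries with Y-linked transcripts (limma adjusted p = 0.034). Its promoter stretch holds the CHR word, as do those of Cdc20, Kif11 and Top2a.

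**Figure D3:**
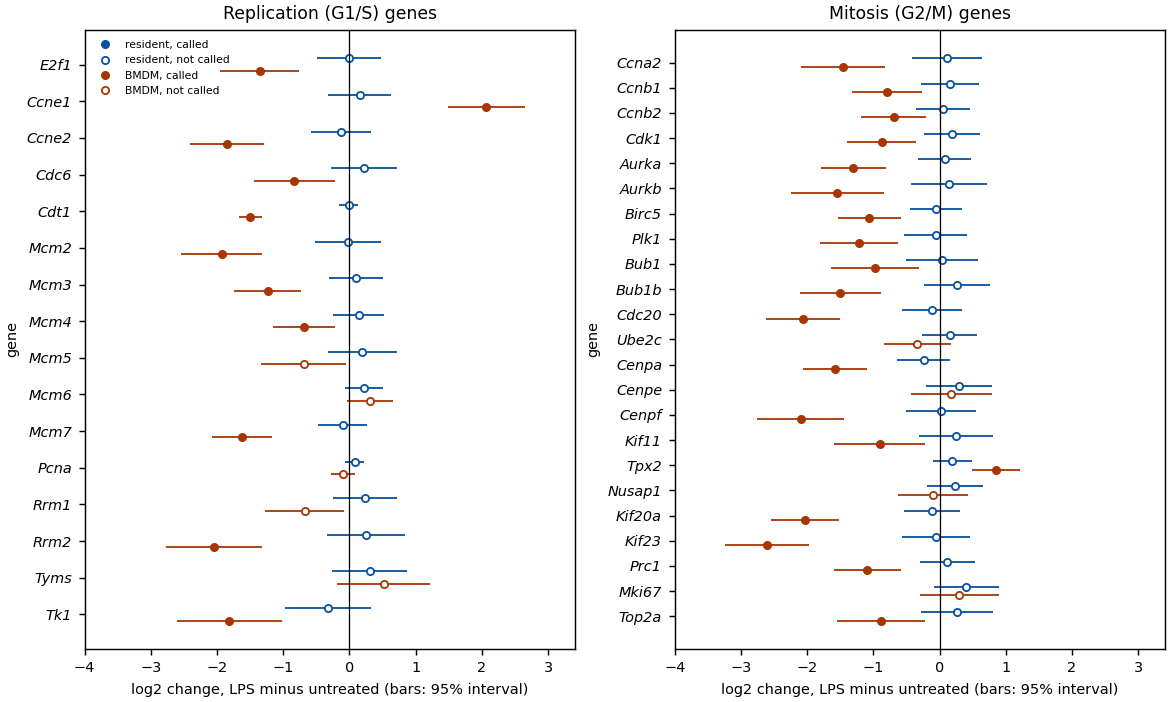
Log2 change with LPS (points, bars are 95% intervals from limma) for each gene in resident macrophages (blue) and BMDM (brown), with filled points where the change was called. Resident points lie between -0.33 and 0.40 and none is filled, while 30 of 39 BMDM points are filled, of which those of Ccne1 and Tpx2 lie to the right of 0.

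These BMDM counts rest on 2 libraries a group, and their error is estimated over all 4 groups. Without both resident libraries with Y-linked transcripts, calls over all genes rose from 7953 to 9180 of 13755. Of the 39 genes 36 were then called, 5 of them higher: Mcm6, Tyms and Mki67 joined Ccne1 and Tpx2. With only the BMDM groups fitted, 37 were called (9521 over all genes) and 6 were higher, with Cenpe as the added gene. Without resident untreated replicate 1 alone, 35 were called (8536 over all genes) and Mcm6 and Tyms were among 4 higher. Voom on recovered reads called 10 G1/S and 18 G2/M genes, losing Cdc6 and Kif11. Without any 1 of the 4 BMDM libraries, fewer genes were called, both of the 39 and over all genes. The lone library of a group was then assumed to vary like the other groups. Calls lost in at least 3 of these 4 fits were those of Cdc6, Mcm4, Ccnb1, Ccnb2, Bub1, Kif11 and Top2a, and Cdk1 was lost without untreated replicate 2 (-0.82, limma adjusted p = 0.0531). Equal library totals moved the median of all genes to -0.64 and the class medians to -1.64 and -1.67. Relative to all genes the G1/S median was then -1.01 and the G2/M median -1.03, against -0.99 and -1.02 with the authors' scaling. Of all genes called, 21.7% were higher with equal totals and 49.0% with the authors' scaling. Pcna (-0.70), Mcm5 (-1.30), Rrm1 (-1.28), Ube2c (-0.95) and Nusap1 (-0.71) were called lower with equal totals.

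The same question was asked of the resident macrophages, where the unpaired fit called no cell cycle gene. The limma test called 0 of 16 G1/S genes and 0 of 23 G2/M genes, and 0 of either class had an unadjusted p under 0.05. Voom on recovered reads called 0 of each class as well. In this comparison 12.9% of all genes were called, 7.36% higher and 5.57% lower. The median change was 0.12 for both classes, against 0.00 for all genes. Equal totals moved the median of all genes to -0.12, and relative to it both class medians were again 0.12. Of all genes called, 56.9% were higher with the authors' scaling and 27.1% with equal totals. The libraries overlapped for all 39 genes, while 13.8% of all genes lay apart upwards and 13.3% downwards.

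The 95% intervals of the main fit use an error estimated over all 4 groups. They therefore do not show what the 6 resident libraries alone can bound. With only the resident groups fitted, calls over all genes fell from 1779 to 529 of 13755, and no cell cycle gene was called. In the main fit the interval of Tk1 was the widest and that of Cdt1 the narrowest. Mki67 had the smallest unadjusted p of the set (0.0974), at 2587, 3947 and 5093 reads in untreated and 3855, 5725 and 5446 in LPS-treated resident libraries. Its change was 0.40, with an interval from -0.09 to 0.89. Tk1, at 198, 342 and 452 before and 173, 280.1 and 318 after LPS, changed by -0.33 (-0.98 to 0.32). Cdt1 (-0.01, interval -0.16 to 0.14) and Pcna (0.08, interval -0.07 to 0.22) were measured more tightly. E2f1 had 199.8, 356 and 386 reads before LPS and 262, 301 and 344 after it, and the libraries of the groups are interleaved.

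Some resident calls depended on replicate 1. With a term for the libraries with Y-linked transcripts, Mcm6 (0.22, limma adjusted p = 0.0277), Rrm2 (0.25, limma adjusted p = 0.0467) and Mki67 (0.40, limma adjusted p = 0.00904) were called higher. Calls over all genes rose with that term from 1779 to 3449 of 13755. Without untreated replicate 1, Cenpa was called lower (-0.47, limma adjusted p = 0.0254), and so it was without both replicates 1 (-0.35, limma adjusted p = 0.0213). Over all genes these fits called 2287 and 2840. In the resident libraries Cenpa stood at 589, 943 and 957 before LPS and at 585, 780.3 and 708 after it. Without untreated replicate 1 the class medians turned to -0.08 (G1/S) and -0.09 (G2/M).

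**Figure D4:**
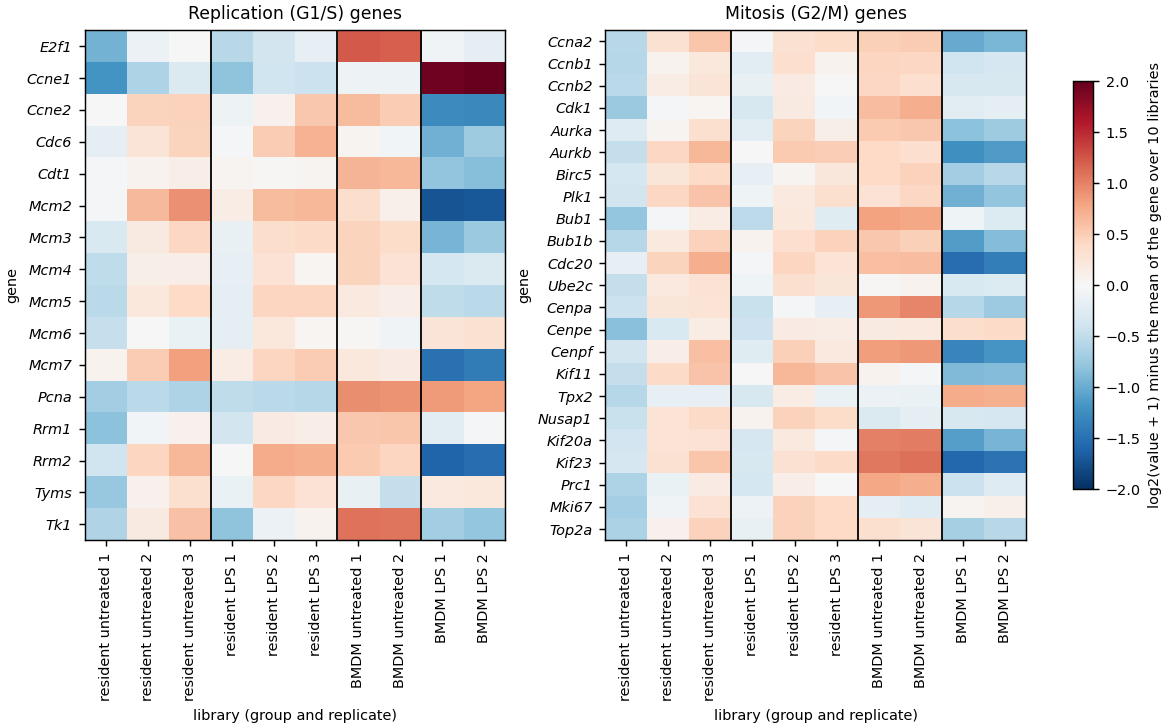
Log2(value + 1) of each gene minus its mean over the 10 libraries, as color, for G1/S genes (left) and G2/M genes (right), with vertical lines between the 4 groups. Most rows are blue in LPS-treated BMDM, the exceptions being Ccne1, Mcm6, Pcna, Tyms, Tpx2, Cenpe and Mki67, and replicate 1 is the bluest column of each resident group.

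The difference of the LPS responses was tested directly, as the resident change minus the BMDM change. It was positive and called for 10 of 16 G1/S genes and 16 of 23 G2/M genes, and negative and called for 1 of each, Ccne1 and Tpx2. Over all genes 41.8% were called, 19.0% positive and 22.8% negative. The median difference was 1.19 for G1/S genes and 1.16 for G2/M genes, against 0.02 for all genes, and 11.4% and 12.0% of all genes lay above those medians. Among G1/S genes the largest differences were those of Rrm2 (2.29 ± 0.42), Mcm2 (1.91 ± 0.35) and Ccne2 (1.72 ± 0.32), and Ccne1 had -1.92 ± 0.33 (limma adjusted p = 0.0011). Rrm2 itself stood at 539.6, 958 and 1128 in untreated and 707, 1192 and 1164 in LPS-treated resident libraries, with no separation of the groups, where in BMDM it had dropped clear of its untreated level. Ccne1 had 92.8, 139 and 175 reads in untreated and 122, 161 and 158 in LPS-treated resident libraries, and these overlapped too. Among G2/M genes the largest were those of Kif23 (2.56 ± 0.37), Cenpf (2.12 ± 0.38) and Cdc20 (1.94 ± 0.32). Kif23 had 323, 505 and 601 reads in untreated and 329, 506 and 531 in LPS-treated resident libraries, a nearly identical spread. Tpx2 had -0.66 ± 0.21 (limma adjusted p = 0.0292), which was lost in 11 of 24 settings, among them equal totals (-0.17, limma adjusted p = 0.621).

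The number of differences called also depended on single libraries. Without BMDM untreated replicate 2 or without BMDM LPS replicate 1, 10 G2/M genes were called in place of 17. Without either BMDM library of a group 8 G1/S genes were called in place of 11. Without both resident libraries with Y-linked transcripts 33 of the 39 genes were called in place of 28, and 31 of them were positive. Calls over all genes rose there from 5752 to 6790 of 13755. Equal totals moved the median difference of all genes to 0.48, and relative to it the class medians were 1.20 and 1.16, against 1.18 and 1.14 with the authors' scaling. Of all genes called, 45.5% were positive with the authors' scaling and 75.2% with equal totals. Pcna, not called in the main fit (0.17), was called positive with equal totals (0.66) and under quantile normalization (0.91). Granulocyte progenitor markers summed to 9654 to 26555 in resident libraries of both treatments and to 63.1 to 269 in BMDM, and their part in the difference was not tested.

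The origin comparison without LPS asks how the cell cycle transcripts of the untreated populations differ. Resident macrophages had lower levels for 6 of 16 G1/S genes and 8 of 23 G2/M genes and higher levels for 0 of each by limma, while 71.9% of all genes were called, 32.6% lower and 39.2% higher. At an unadjusted p under 0.05 the counts in either direction were 7 and 9, and voom called 6 and 8. The class medians were -0.28 and -0.42, against 0.08 for all genes. The libraries lay apart downwards for 22 of the 39 genes and upwards for 0, against 38.3% and 44.4% of all genes. Pcna was lower by a wide margin, at 4963, 5519.9 and 5200.0 reads in resident and 15356 and 14909 in BMDM libraries, a difference of -1.53 ± 0.07 (limma adjusted p = 4.05e-08). E2f1, given above, differed by -1.57 ± 0.24 (limma adjusted p = 0.00021), and its highest resident value of 386 lay well under 889, the lower BMDM value.

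The share of the set called lower in untreated resident cells, 14 of 39, was near the 32.6% of all genes. Those 14 were also all its calls, against 71.9% of all genes called. Further genes among them are given here. Tk1 had 198, 342 and 452 reads against 643 and 639, a difference of -1.03 ± 0.33 (limma adjusted p = 0.0157). Bub1 had 176, 294 and 335 reads against 531 and 515, a difference of -1.01 ± 0.27 (limma adjusted p = 0.00696). Each of the central spindle genes was called lower: Kif20a had 345, 539.5 and 547 reads against 904 and 913 (-0.96 ± 0.21, limma adjusted p = 0.00205). Prc1 had 533, 749 and 923 against 1407 and 1357 (-0.95 ± 0.21, limma adjusted p = 0.00212), and Kif23 differed by -0.91 ± 0.26. In all of these the highest resident library stayed below the lowest BMDM library.

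These origin counts and medians moved with single libraries. The class medians were -0.11 and -0.17 without untreated resident replicate 1 and -0.46 and -0.62 without untreated resident replicate 3. Without untreated resident replicate 3 the G2/M count was 14, all lower. Without BMDM untreated replicate 1 or 2 the G1/S count was 3, and without BMDM untreated replicate 2 the G2/M count was 5. Without both replicates 1 of the resident groups, calls over all genes went from 9883 to 10460 of 13755. Then 10 G1/S genes were called, 3 of them higher in resident cells, and 13 G2/M genes, 4 of them higher. The higher ones were Mcm2 (0.55), Mcm7 (0.48), Tyms (0.52), Kif11 (0.45), Nusap1 (0.56), Mki67 (0.33) and Ube2c (0.20, against -0.05 with all libraries). Tk1 and Rrm1 were not called without 1 of the BMDM untreated libraries, and Ccnb1 (-0.53, limma adjusted p = 0.0499) was lost in 12 settings. Progenitor markers differ between the origins as given above, and their part in these levels was not tested.

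After LPS, more cell cycle genes were higher in resident macrophages than lower. Resident macrophages were higher for 8 of 16 G1/S genes and 13 of 23 G2/M genes and lower for 2 and 1, while 71.3% of all genes were called, 36.7% higher and 34.5% lower. The class medians were 0.60 and 0.67, against 0.03 for all genes. The libraries lay apart upwards for 26 and downwards for 5 of the 39 genes, against 42.3% and 40.2% of all genes. Relative to all genes the class medians were 0.57 and 0.64 under either scaling, while 51.5% of all genes called were higher with the authors' scaling and 68.2% with equal totals. The untreated and LPS comparisons of origin share no library, but the LPS comparison shares its libraries with both LPS responses described above. Mcm2 stood at 695, 979.9 and 1000.1 reads in resident and 190.2 and 194 in BMDM libraries, a difference of 2.19 ± 0.25 (limma adjusted p = 2.45e-05). Rrm2 differed by 2.05 ± 0.30 and Mcm7 by 1.81 ± 0.19, the latter at 949, 1154 and 1219.9 reads against 303 and 325. In these genes the lowest resident library was above the highest BMDM library.

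Mitosis genes showed the same order after LPS. Cdc20 stood at 416, 576 and 518 reads in resident and 148 and 164 in BMDM libraries, a difference of 1.67 ± 0.23 (limma adjusted p = 8.34e-05). Kif23 had 329, 506 and 531 reads against 137 and 146 (1.65 ± 0.26, limma adjusted p = 0.000239). Aurkb had 382, 544 and 536 reads against 162 and 173 (1.51 ± 0.29, limma adjusted p = 0.000841). The 3 genes on the other side were Ccne1, Pcna and Tpx2. Ccne1 had 122, 161 and 158 reads against 827 and 853, a difference of -2.52 ± 0.24 (limma adjusted p = 6.01e-06). Pcna had 5644, 5496 and 5386 reads against 14509.8 and 13918, a difference of -1.37 ± 0.07 (limma adjusted p = 1.25e-07), close to its difference without LPS. Tpx2 had 1184, 1633 and 1349 reads against 2479 and 2435, a difference of -0.84 ± 0.15 (limma adjusted p = 0.000554). Cdk1 (0.14 ± 0.21) and Mki67 (0.17 ± 0.25) were not called, and their libraries overlapped between origins. Without both resident libraries with Y-linked transcripts, Cdk1 (0.27, limma adjusted p = 0.0259) and Mki67 (0.35, limma adjusted p = 0.0153) were called higher. In that fit 34 of the 39 genes were called in place of 24, 31 of them higher. Calls over all genes rose as well, from 9802 to 10621 of 13755.

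The machinery around the 39 genes was counted from further lists. In BMDM with LPS, 20 of 27 spindle, condensin and cytokinesis genes fell and 2 rose, with a median of -1.49. Of 20 kinetochore and checkpoint genes 11 fell and 0 rose, of 27 replicative polymerase and fork genes 16 fell and 2 rose, and of 17 origin recognition and helicase loading genes 10 fell and 2 rose. The medians of these lists were -0.97, -0.59 and -0.57. Of all genes, 29.5% were called lower and 28.3% higher, 57.8% in all, and the kinetochore list had about that share of calls. Gmnn, which encodes the licensing inhibitor geminin, fell by 2.66 ± 0.19, and Fbxo5, an inhibitor of the anaphase-promoting complex, fell by 3.12 ± 0.32. Pttg1, which encodes securin, the guard of sister chromatid cohesion, rose by 2.36 ± 0.15, and the initiation factor gene Mcm10 rose by 1.21 ± 0.18. In resident cells these 4 lists held 1 called gene, the spindle gene Ckap2l (0.58 ± 0.16, limma adjusted p = 0.0354), a call lost in 12 settings, among them those without resident untreated replicate 1 (0.43) or 3 (0.66) and LPS replicate 2 (0.45) or 3 (0.57).

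Genes that gate entry into the cycle went in both directions in BMDM. Cdkn1a, which encodes the CDK inhibitor p21, stood at 5605 and 5716 reads before LPS and at 66841 and 66571 after it, a rise of 3.56 ± 0.15 (limma adjusted p = 1.38e-08). Cdkn2c, which encodes p18, an inhibitor of CDK4 and CDK6, fell from 923 and 975 to 255 and 214 (-2.02 ± 0.26). The D-type cyclins switched: Ccnd1 fell from 4455 and 4302 to 1426 and 1369 (-1.65 ± 0.29), and Ccnd2 rose from 105 and 91.4 to 12573 and 13153 (7.02 ± 0.12, limma adjusted p = 1.03e-10). In resident cells Ccnd2 started at 3858 to 4485 and rose by 0.68 ± 0.10 (limma adjusted p = 0.00228). Cdkn1a rose there by 0.48 ± 0.12 (limma adjusted p = 0.0302), from 9593 to 12973 reads to 14862 to 17649, a call lost in 10 settings, among them those without resident untreated replicate 3 (0.33, limma adjusted p = 0.0548), LPS replicate 1 (0.42, limma adjusted p = 0.0748) and LPS replicate 2 (0.47, limma adjusted p = 0.0914).

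The factors known to write the G1/S and G2/M programmes changed in both directions in BMDM. Of 12 RB family and DREAM genes 5 fell and 2 rose, and of 7 other E2F factor genes 3 fell and 1 rose, shares to be read against the 29.5% and 28.3% of all genes. E2f2, an activating E2F, had 606 and 577 reads before LPS and 29.8 and 25.7 after it, a change of -4.37 ± 0.30 (limma adjusted p = 5.31e-07). Foxm1 fell from 554 and 543 to 197 and 239.8 (-1.33 ± 0.32), and Mybl2, which encodes B-MYB, fell by 1.25 ± 0.32, a call that voom did not make (limma adjusted p = 0.102). Rbl1, which encodes the RB relative p107, rose from 815 and 770.5 to 4873 and 4941 (2.63 ± 0.12), while Rb1 fell by 0.92 ± 0.18 and Rbl2 by 0.62 ± 0.15. Myc, a growth regulator, fell from 1711 and 1663 to 281 and 245 (-2.68 ± 0.16), and Csf1, which encodes macrophage colony-stimulating factor, rose from 176 and 182 to 8432 and 8784 (5.58 ± 0.13). In resident cells E2f2, Foxm1 and Mybl2 were not called. Rbl1 rose there by 0.49 ± 0.09 (limma adjusted p = 0.00902) and Myc by 0.46 ± 0.13 (limma adjusted p = 0.0434), and neither call held with equal totals (limma adjusted p = 0.0907 and 0.206). The Myc call was also lost without any 1 of the LPS-treated resident libraries (0.41 to 0.51).

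**Figure D5:**
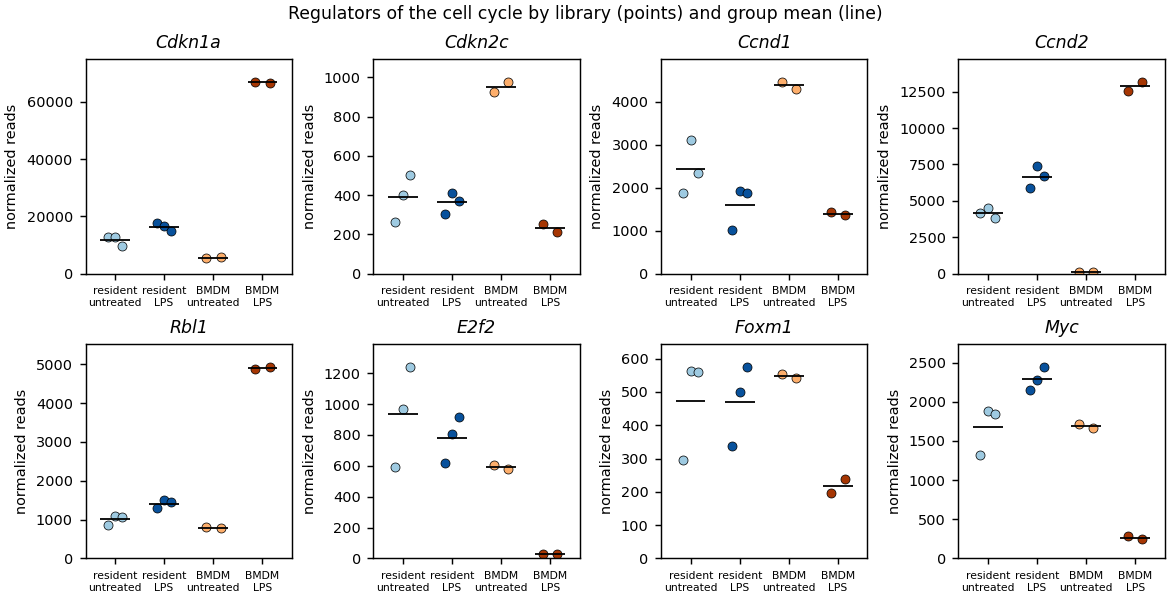
Normalized reads of 8 regulators in each library (points) with the group mean (line), on linear axes that start at 0. LPS-treated BMDM stand highest for Cdkn1a, Ccnd2 and Rbl1 and lowest for E2f2, Foxm1, Cdkn2c and Myc, while resident libraries of the 2 treatments overlap for Cdkn2c, E2f2 and Foxm1.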

How the data were processed

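RNA sequencing of 10 libraries was used as deposited. The deposited values are signal values per gene, which the authors made by dividing read counts by 1 factor per library, with a floor of 1. This was read from the values, of which 100% came out as whole reads within 0.02 of an integer in each library. Alignment used HISAT 0.1.7 and mm10, per the submitters' processing notes. For the counting program, annotation and strand setting, the sources used here give nothing.

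Genes with a value of at least 10 in at least 2 libraries were kept (13755 of 13809). A linear model over the 4 groups was fitted to log2(value + 1) with limma 3.58.1 (R 4.3.3, trend, 6 residual degrees of freedom), and p-values were adjusted by the Benjamini-Hochberg method within each comparison over all genes tested, with calls at 0.05. Fold changes on this scale understate the change of low genes. "Apart" means that the libraries of the groups do not overlap. The fit was tested on simulated data with independent libraries and the same spread setting for every gene and group. That test does not cover the differences of replicate 1 in the resident groups. Promoter words, exon overlaps and figures came from Python 3.11.15 and matplotlib 3.10.9. Groups followed the labels, and replicates were numbered in accession order.

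The members and lists were chosen with earlier results of these data known. Values per library are given for up to 3 called genes per class and direction with the largest change in a comparison, for genes called against most of their class, and for Mki67, Cdk1, Ccnb1, Pcna, Mcm2, Ccne1, Ccne2 and E2f1. The values of Mcm6, Cdt1 and Cenpa were added after they were seen. Other genes are named only from a fixed set of regulators or as the 2 largest rises or falls of their list. Alternatives covered the pseudocount, filter, scaling, variance model and left-out libraries. Voom on recovered reads was added after the data were seen and called 7677 genes in BMDM with LPS, against 7953 in the main test, and 1781 against 1779 in resident cells.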

Additional observations from a re-analysis of the deposited data

Results flagged for a closer look

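For 28 of the 39 genes the LPS response of resident macrophages differed from that of BMDM by the test of the difference itself (limma, adjusted p under 0.05), given here as the resident log2 change minus the BMDM log2 change. Over all genes 19.0% were called positive and 22.8% negative.

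Among replication genes the difference was 1.35 for the transcription factor gene E2f1, 1.72 for Ccne2 and -1.92 for Ccne1. For the loaders it was 1.05 for Cdc6 and 1.49 for Cdt1. For the helicase it was 1.91 for Mcm2, 1.34 for Mcm3, 0.83 for Mcm4 and 1.52 for Mcm7. For nucleotide supply it was 2.29 for Rrm2 and 1.48 for Tk1. In all of these except Ccne1 the BMDM change was negative, and the resident change lay between -0.33 and 0.25.

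Among mitosis genes the difference was 1.57 for Ccna2, 0.95 for Ccnb1 and 1.06 for Cdk1. For the kinases and the passenger complex it was 1.38 for Aurka, 1.68 for Aurkb, 1.01 for Birc5 and 1.16 for Plk1. It was 1.76 for the checkpoint kinase gene Bub1b and 1.94 for Cdc20. At the centromere it was 1.34 for Cenpa and 2.12 for Cenpf. For the spindle it was 1.16 for Kif11 and -0.66 for Tpx2. In cytokinesis it was 1.92 for Kif20a, 2.56 for Kif23 and 1.21 for Prc1, and for the topoisomerase gene Top2a it was 1.15.

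Some of these calls were lost in other settings. The Cdc6 difference was lost in 10 of 24 settings, among them voom on recovered reads (limma adjusted p = 0.0655) and quantile normalization (0.67, limma adjusted p = 0.116). Mcm4, Tk1, Ccnb1, Kif11 and Top2a were lost without any 1 of the 4 BMDM libraries, and Tpx2 as well. Those of Mcm4, Tk1, Ccnb1, Kif11 and Top2a were also lost without resident LPS replicate 2 and without resident LPS replicate 3. Without a variance trend Mcm4, Ccnb1, Kif11, Top2a and Tpx2 were lost, and Kif11 was lost with voom. Cdk1 and Plk1 were lost in 3 settings and Birc5 in 2, each of which left out a BMDM library. The differences of the remaining 18 genes were called in all 24 settings.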

How the results depend on the processing

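No paired analysis was run, because the labels give no replicate numbers shared between groups. Resident libraries nonetheless resembled each other across treatments. Megakaryocyte marker sums by replicate were 14475, 45925 and 32224 untreated and 18821, 50116 and 31940 with LPS. Y-linked transcripts were in replicate 1 of each resident group. An unpaired fit counts such shared differences as error, so the lack of resident calls holds for the unpaired main fit. Unpaired fits without resident untreated replicate 1, or without both libraries with Y-linked transcripts, called Cenpa lower. The planned edgeR, DESeq2 and TMM-voom alternatives were not run, and voom on recovered reads was run in their place. Equal library totals, with and without Rn45s, gave class medians (G1/S, then G2/M) of -1.64 and -1.67, and -1.68 and -1.70, for BMDM with LPS. They gave 1.68 and 1.64, and 1.72 and 1.68, for the difference of responses, and a G2/M median of 0.99 and 1.00 between origins after LPS. They turned 2 further called genes: Pold3 in BMDM with LPS (-0.21 and -0.24) and Cdk4 between origins after LPS (0.31 and 0.32). Between untreated origins, array weights called 10 G1/S and 14 G2/M genes. A term for the libraries with Y-linked transcripts called 11 and 13, and leaving those libraries out called 10 and 13 and gave Ube2c at 0.20. Over all genes these settings called 11107, 10583 and 10460, against 9883 in the main fit. In resident cells with LPS that term called 2 G1/S genes and 1 G2/M gene, and leaving those libraries out called 1 G2/M gene. Over all genes the calls were 3449 and 2840, against 1779 in the main fit. The cause was not tested.

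Leaving out 1 library at a time gave 0 to 1 G2/M genes called in resident cells with LPS. In BMDM with LPS it gave 9 to 15 G1/S and 13 to 20 G2/M genes, with medians of -1.13 to -0.93 and -1.13 to -1.01. Between untreated origins it gave 3 to 8 and 5 to 14, and after LPS 9 to 12 and 11 to 18. For the difference of responses it gave 8 to 13 and 10 to 18, with a G2/M median of 0.85 to 1.37. With 2 or 3 libraries a group, the number of libraries limits the precision.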
